A study of Rattus norvegicus with 145 samples.

Results

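Acetamide is a small amide that occurs as a food contaminant and causes liver tumors in rats at high doses. The data described here are from the highest dose given to males for the shorter time. The 10 livers were taken from the series by the sample labels, 5 from male rats gavaged with 1500 mg/kg/day (mkd) of acetamide and 5 from male rats gavaged with the water vehicle, out of 145 rats in all. All 10 were Crl:WI (Wistar) rats of 8 to 10 weeks, gavaged daily for 7 days. The left lobe of the liver was collected on day 8, and its RNA was measured by RNA-Seq. The same count table holds 20 more males at 300, 500, 750 and 1000 mkd, 5 at each dose, which entered the same fit. The comparison of 1500 mkd with vehicle asks which genes of the male liver responded after a week at the highest dose.

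Library depth on genes ranged from 20196236 to 33856859 reads, and TMM scaling factors ranged from 0.894 to 1.19. Reads that fell on no gene or could not be assigned made up 41.4 to 56.7% of the counts in vehicle rats and 39.5 to 47.9% in rats at 1500 mkd, and the highest shares, 56.7 and 53.7%, were in vehicle rats 4 and 5. No 2 of the 10 rats had identical values, and their log2 CPM (read counts scaled to a common library total) correlated at 0.964 to 0.984. All 10 markers of hepatocytes, such as albumin and apolipoproteins, were detected and together made up 208000 to 298000 CPM in a rat. Of the erythroid markers, Hba1 and Gata1 were at 0 in all 10 rats.

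The liver of an adult rat holds few dividing cells. When a hepatocyte enters the cell cycle it first makes the enzymes of DNA replication, then cyclins and mitotic kinases, and last the proteins of the spindle, the kinetochore and the dividing midzone. Many of the late genes share promoter elements, the cell cycle genes homology region (CHR) bound by MuvB complexes and CCAAT boxes bound by NF-Y, while many S phase genes carry E2F sites. Fatty acids enter metabolism as coenzyme A (CoA) esters, and acyl-CoA thioesterases set them free again. In the liver, the receptor PPARα controls many of these enzymes together with the genes of fatty acid oxidation.

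Promoters are shown for 5 of the genes that were higher at 1500 mkd. These promoters come from the 2 groups that the results turn on, mitotic genes and acyl-CoA thioesterases. Each is the run of 150 bases before the annotated start, 5′ to 3′, from RefSeq on build GRCr8 (the counts were made on build Rn6). Capitals mark 3 kinds of motif, each searched on both strands. A CHR was spelled with the letters TTTGAA, and a variant form of the same element was spelled with the letters TTCGAA. The second motif is the CCAAT box, spelled by its name, which reads ATTGG on the other strand. An E2F site was spelled TTTCCCGC, TTTGGCGC, TTTCGCGC or TTTGCCGC. No marked motif overlaps another one in the promoters shown.
Kifc1, chr20:5000779-5000928, + strand: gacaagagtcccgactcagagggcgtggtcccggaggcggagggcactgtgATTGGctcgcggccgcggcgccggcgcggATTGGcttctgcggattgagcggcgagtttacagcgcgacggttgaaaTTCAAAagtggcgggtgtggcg
Tacc3, chr14:81289699-81289848, - strand: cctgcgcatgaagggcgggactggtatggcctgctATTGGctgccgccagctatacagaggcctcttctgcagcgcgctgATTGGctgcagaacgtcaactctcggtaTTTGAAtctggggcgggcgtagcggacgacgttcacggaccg
Ercc6l, chrX:71301187-71301336, - strand: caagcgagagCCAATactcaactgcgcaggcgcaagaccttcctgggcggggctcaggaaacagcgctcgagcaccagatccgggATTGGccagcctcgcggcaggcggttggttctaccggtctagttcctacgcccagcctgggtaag
Stmn1, chr5:151965029-151965178, + strand: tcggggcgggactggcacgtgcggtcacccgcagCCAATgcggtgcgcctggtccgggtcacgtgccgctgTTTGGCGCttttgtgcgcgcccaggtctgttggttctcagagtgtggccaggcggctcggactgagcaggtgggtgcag
Acot1, chr6:109367124-109367273, + strand: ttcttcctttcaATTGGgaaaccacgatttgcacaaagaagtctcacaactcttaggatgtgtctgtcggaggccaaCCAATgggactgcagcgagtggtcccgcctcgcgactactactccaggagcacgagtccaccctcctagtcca
Kifc1 and Tacc3 each held 2 CCAAT boxes followed by a CHR nearer to the start, Ercc6l 2 CCAAT boxes, and Stmn1 a CCAAT box and an E2F site. Acot1 held 2 CCAAT boxes as well, so that this element alone does not set the mitotic genes apart from the thioesterase. The promoters shown were picked for the motifs they hold. Tk1 and Mybl2 were called as well. In the window of 250 bases before and 50 after the start, they held none of the 3 motifs as spelled above. Sites in other spellings were not searched. In the same window the called thioesterase Acot2 held a CHR, at position -247, and a CCAAT box. The CHR therefore does not set the 2 groups apart either. Of the 6 called cell cycle genes with a promoter, 2 held a CHR. Of the 17 called genes with a promoter, 17.6% held a CHR, against 14.1% of the genes tested.

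At 1500 mkd, 20 genes were differentially expressed in males on day 8, 16 of them higher and 4 lower than in the vehicle control. The thresholds were a 1.5-fold change in either direction and a p, adjusted by Benjamini-Hochberg, no larger than 0.05 in the quasi-likelihood test of edgeR. In all, 11304 genes were tested, so that 0.177% were called in either direction, 0.142% up and 0.0354% down. Of the 16 up-regulated genes, 7 were in the lists of cell cycle genes (Ercc6l, Tacc3, Tpx2, Kifc1, Stmn1, Tk1 and Mybl2) and 3 were acyl-CoA thioesterases (Acot1, Acot2 and Acot3). The others were Abcb1b, Tmem120a, Dctpp1, Krt18, Lmna and Map1lc3a. The down-regulated genes were Fam210b, Atp13a5, Slc20a2 and Eda. Fold changes ranged from 1.54 to 30.4, with 11 genes over 2-fold and 5 over 3-fold. In 17 of the 20 genes the 5 treated rats did not overlap the 5 vehicle rats, against 2.55% of all genes tested (1.45% above and 1.1% below the vehicle), while in Ercc6l, Stmn1 and Tk1 a single treated rat lay within the range of the vehicle.

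**Figure D1:**
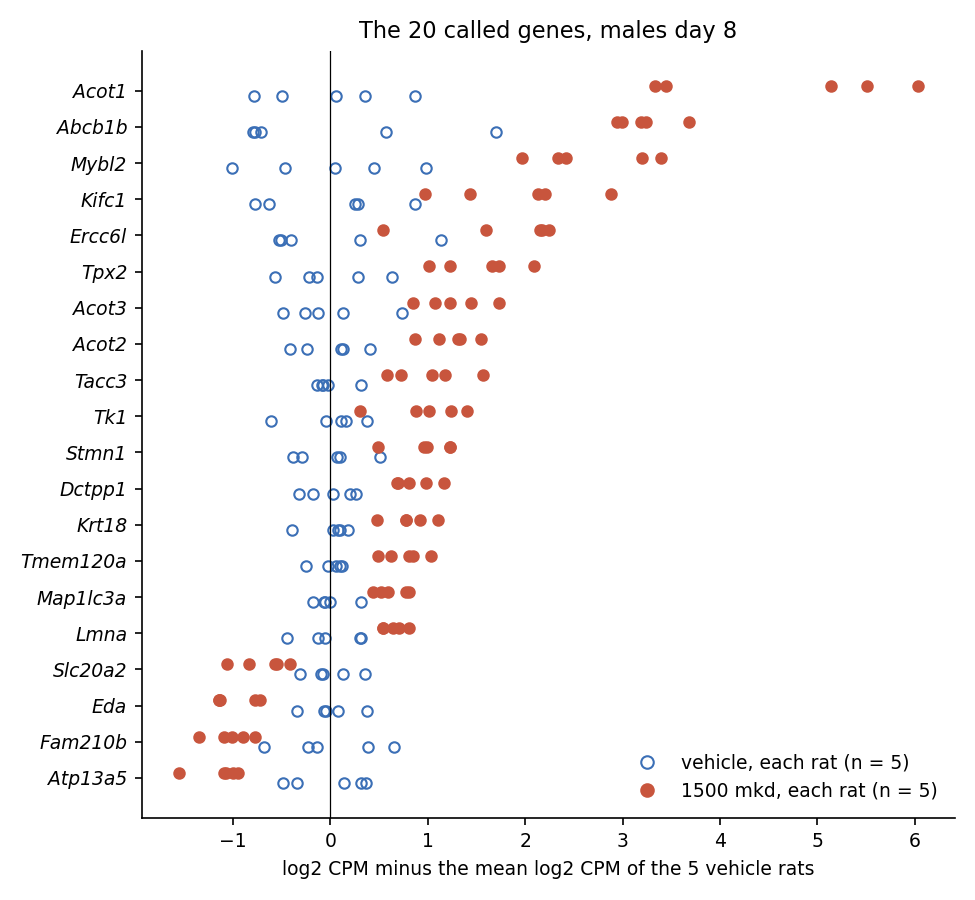
Level of each of the 20 called genes in each rat, as log2 CPM minus the mean log2 CPM of the 5 vehicle rats (open circles vehicle, filled circles 1500 mkd, n = 5 each). Acot1 lies farthest to the right, with all 5 treated rats more than 3 above the vehicle mean, and the treated rats of Fam210b, Atp13a5, Slc20a2 and Eda lie to the left.

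How many genes passed depended on which rats were in the fit. Without vehicle rats 1 to 5 in turn, 5, 7, 4, 3 and 86 genes were called. Without treated rats 1 to 5 in turn, 3, 34, 2, 3 and 61 genes were called. Acot1 and Tmem120a were called without any 1 of the 10 rats, and the other 18 genes without 2 to 5 of them. The Wald test of DESeq2 called 178 genes, 131 up and 47 down, with the same 20 among them. Relaxed criteria (1.4-fold either way, adjusted p no larger than 0.1) were met by 156 genes (1.38%), 110 up (0.973%) and 46 down (0.407%), and between 18 and 306 genes met them when 1 of the 10 rats was left out.

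Acot1, the cytosolic enzyme that hydrolyses long-chain acyl-CoA, was the most changed gene. It was at 1.34, 0.742, 1.90, 0.607 and 1.08 CPM in the vehicle rats and at 37.0, 47.6, 10.5, 68.3 and 11.4 CPM at 1500 mkd. The lowest treated rat was thus well above the highest vehicle rat, and within the treated group rats 3 and 5 stood lower than the rest. The fitted log2 fold change was 4.93 (standard error, SE, 0.71, adjusted p = 0.00153), and it stayed between 4.53 and 5.20 without any 1 of the 10 rats.

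The genes Acot2, Acot1, Acot4, Acot3, Acot5 and Acot6 are neighbours on chromosome 6 in the RefSeq annotation and are close copies of each other, so that the share of reads counted on each is uncertain. Acot2, the mitochondrial enzyme, was at 48.8, 33.9, 60.2, 38.3 and 49.6 CPM in the vehicle rats and at 114, 97.8, 82.5, 132 and 113 CPM at 1500 mkd (log2 fold change 1.22, SE 0.25, adjusted p = 0.0353). Acot3, a peroxisomal enzyme, was at 20.4 to 47.5 CPM in the vehicle rats and at 51.4 to 94.3 CPM at 1500 mkd (log2 fold change 1.23, SE 0.25, adjusted p = 0.0353). For Acot3, as for Acot1 and Acot2, treated rat 4 was the highest and treated rat 3 the lowest. Acot4, the peroxisomal succinyl-CoA thioesterase, met the relaxed criteria with a log2 fold change of 0.84 (adjusted p = 0.0714), and Acot5 had a log2 fold change of 0.38 (adjusted p = 0.62).

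Of the 12 acyl-CoA thioesterases tested, 11 had a positive log2 fold change, 6 had an unadjusted p under 0.05 and 3 were called, with a median log2 fold change of 0.30. Without 1 of the 10 rats, 1 to 3 of them were called. Over all genes tested, 715 (6.33%) were higher at an unadjusted p under 0.05, and the median was -0.0039. Of the 42 PPARα targets and genes of fatty acid oxidation, which include thioesterases of chromosome 6, 28 were higher, and the median was 0.13. At an unadjusted p under 0.05, 8 were higher and 1 was lower. In this list 3 genes were called, all of them thioesterases. Cyp4a1, the ω-hydroxylase, had a log2 fold change of 0.31 (adjusted p = 0.57), Cpt1a, which brings fatty acids into mitochondria, 0.19 (adjusted p = 0.68), and Pdk4 0.20 (adjusted p = 0.88). Of the thioesterases of chromosome 6, Acot1, Acot2 and Acot3 passed the test. Cyp4a1, Cpt1a and Pdk4 did not, but they were named after their values were seen and do not stand for the rest of the list. Acsm2a, a medium-chain acyl-CoA synthetase, met the relaxed criteria, at 6.66, 19.7, 8.38, 21.0 and 12.3 CPM in the vehicle rats and 101, 17.8, 38.0, 23.3 and 111 CPM at 1500 mkd (log2 fold change 2.10, SE 0.54, adjusted p = 0.0746). Treated rat 2 lay within the range of the vehicle rats, and rats 1 and 5 were highest.

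Among the mitotic genes, Tpx2, which activates the kinase Aurora A on spindle microtubules, was at 2.64, 3.37, 3.57, 4.76 and 6.09 CPM in the vehicle rats and at 9.17, 7.91, 13.0, 12.3 and 16.7 CPM at 1500 mkd. Its log2 fold change was 1.54 (SE 0.31, adjusted p = 0.0333). Kifc1, the minus-end kinesin whose promoter is printed above, was at 0.856, 0.942, 1.74, 1.77 and 2.67 CPM in the vehicle and at 3.95, 2.87, 6.71, 6.40 and 10.7 CPM at 1500 mkd (log2 fold change 1.96, SE 0.40, adjusted p = 0.0358). In both genes vehicle rats 4 and 5 were the highest of their group and treated rats 1 and 2 the lowest of theirs.

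Ercc6l, the helicase that coats the thin DNA bridges of anaphase, was at 0.372, 0.400, 0.367, 0.654 and 1.17 CPM in the vehicle and at 1.60, 0.770, 2.36, 2.51 and 2.40 CPM at 1500 mkd. Treated rat 2 lay below vehicle rat 5, and the log2 fold change was 1.73 (SE 0.33, adjusted p = 0.0333). Tacc3, which stabilises spindle microtubules, was at 7.22, 6.97, 7.55, 7.29 and 9.51 CPM in the vehicle and at 11.5, 12.7, 15.8, 17.4 and 22.7 CPM at 1500 mkd (log2 fold change 1.06, SE 0.20, adjusted p = 0.0333). Its vehicle rats lay close together except for rat 5. Stmn1, the microtubule-destabilising stathmin, rose from 4.13 to 7.68 CPM in the vehicle rats to 7.59 to 12.7 CPM at 1500 mkd (log2 fold change 0.97, SE 0.20, adjusted p = 0.0363).

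Tk1, the thymidine kinase of S phase, was at 4.54, 7.48, 7.78, 6.72 and 9.01 CPM in the vehicle and at 12.8, 8.54, 18.3, 16.3 and 14.0 CPM at 1500 mkd (log2 fold change 0.98, SE 0.20, adjusted p = 0.0367). Treated rat 2 was again the one within the vehicle range. Mybl2, the transcription factor B-Myb that joins MuvB at the promoters of late cell cycle genes, was at 0.707, 0.257, 0.534, 1.03 and 0.375 CPM in the vehicle and at 4.77, 5.46, 2.62, 2.77 and 2.02 CPM at 1500 mkd. All treated rats were above all vehicle rats, and the log2 fold change was 2.62 (SE 0.57, adjusted p = 0.0438). Here treated rats 1 and 2 were the highest, in contrast to Tpx2, Kifc1 and Ercc6l.

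The 4 lists of cell cycle genes together held 140 tested genes, of which 130 had a positive log2 fold change, with a median of 0.92. An unadjusted p under 0.05 was found for 92 of them in the upward and 0 in the downward direction, against 6.33 and 6.32% of all genes tested. Of these 140 genes, 7 were called and 37 met the relaxed criteria, all of them up, against 0.142 and 0.973% of all genes. The counts of called and relaxed genes moved with the rats in the fit, from 0 to 46 and from 4 to 61 without 1 rat, while 80 to 95 genes were higher at an unadjusted p under 0.05 and the median stayed between 0.80 and 1.05.

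**Figure D2:**
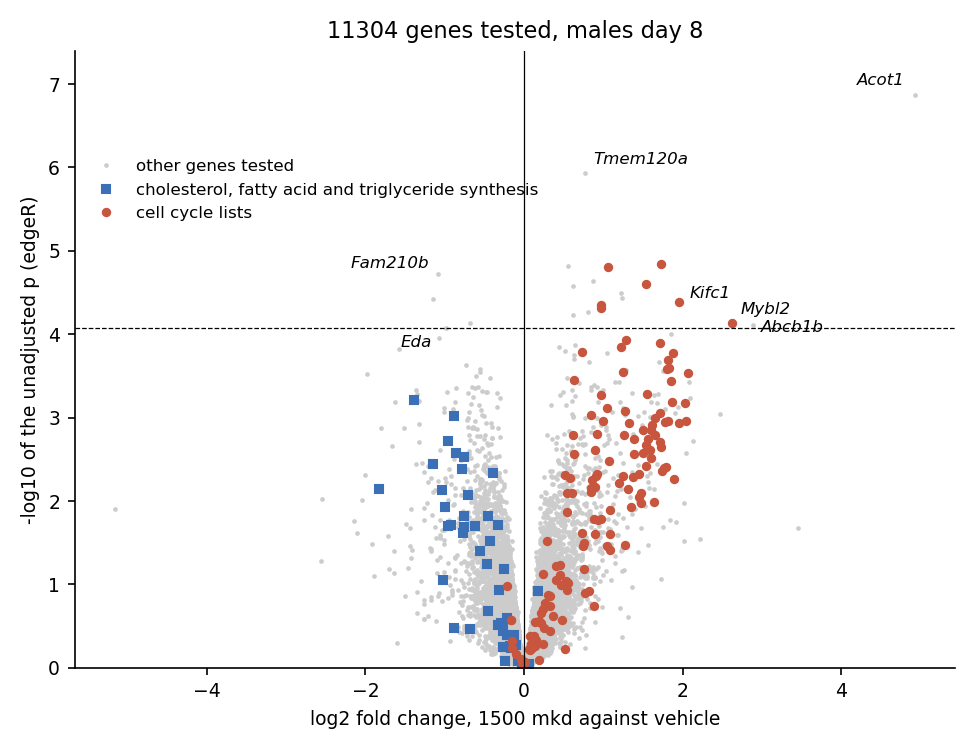
Log2 fold change at 1500 mkd against vehicle (x axis) and -log10 of the unadjusted p from edgeR (y axis) for the 11304 genes tested, with the cell cycle lists as red circles and the lists of cholesterol, fatty acid and triglyceride synthesis as blue squares. The dashed line marks the largest p of a called gene, and 130 of 140 cell cycle genes lie to the right of 0, most of them under that line.

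The lists differed by the stage of the cycle. In the list of the spindle, kinetochore and cytokinesis, all 56 tested genes were higher, 51 of them at an unadjusted p under 0.05, 24 met the relaxed criteria and 5 were called, with a median log2 fold change of 1.36. Without 1 of the 10 rats, 3 to 39 of these genes met the relaxed criteria and 0 to 30 were called, the most without vehicle rat 5. In the list of cyclins, kinases and phosphatases, 32 of 35 were higher, 20 at an unadjusted p under 0.05, with a median of 0.82. In the list of replication licensing and S phase, 34 of 37 were higher, 16 at an unadjusted p under 0.05, with a median of 0.47. Of the 12 transcription factors and co-regulators, 8 were higher and 5 had an unadjusted p under 0.05, with a median of 0.22. The difference between the lists was not tested.

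Aurkb, the kinase of the chromosomal passenger complex, was at 0.596, 1.03, 1.27, 1.63 and 3.25 CPM in the vehicle and at 3.08, 2.94, 5.75, 7.51 and 7.81 CPM at 1500 mkd (log2 fold change 1.82, adjusted p = 0.0617). Mki67, the gene of the proliferation marker Ki67, was at 4.69, 3.77, 5.24, 12.4 and 17.1 CPM in the vehicle and at 17.9, 14.1, 23.9, 33.9 and 41.7 CPM at 1500 mkd (log2 fold change 1.62, adjusted p = 0.0913). Both met the relaxed criteria, and in both treated rats 1 and 2 were the lowest of their group and near vehicle rat 5. Cdkn2c, an inhibitor of the kinases of G1, met them too, with all treated rats, at 3.30 to 4.34 CPM, above all vehicle rats, at 1.77 to 2.80 CPM (log2 fold change 0.74, adjusted p = 0.0582).

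Among the 10 largest changes upward, other genes of mitosis that met the relaxed criteria with all treated rats above all vehicle rats were Troap (log2 fold change 2.07), Ckap2 (2.04), Kif18b (1.87), the separase Espl1 (1.80), Kif20a (1.28), Cdca8 (1.22) and the augmin subunit Haus4 (1.04), with adjusted p between 0.0546 and 0.0757. The cyclin-dependent kinase Cdk1 (log2 fold change 1.80, adjusted p = 0.15), its cyclin Ccnb1 (1.73, adjusted p = 0.12), Foxm1 (0.86, adjusted p = 0.17) and E2f1 (0.93, adjusted p = 0.10) did not meet them. Mis12, a kinetochore subunit that is in none of the lists, was lower, at 4.50 to 6.67 CPM in the vehicle and 2.80 to 3.94 CPM at 1500 mkd (log2 fold change -0.73, adjusted p = 0.0658).

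Promoter sequences were found for 33 of the 37 cell cycle genes that met the relaxed criteria. In the window of 250 bases before and 50 after the start, 22 of these 33 (66.7%) held a CHR, 27 (81.8%) a CCAAT box and 4 (12.1%) an E2F site. Of the 82 other cell cycle genes tested with a promoter, 50.0% held a CHR, 53.7% a CCAAT box and 25.6% an E2F site. Of all 8592 tested genes with a promoter, 14.1% held a CHR, 38.8% a CCAAT box and 4.07% an E2F site, and of all 27457 symbols 21.0, 39.6 and 2.37%. The relaxed cell cycle genes thus held the 2 elements of the late cell cycle more often, and the E2F site less often, than the other cell cycle genes by these counts. Of the 37 relaxed genes, 24 were of the spindle list (56 tested) and 4 of the S phase list (37 tested). The 2 sets thus differed in their lists as well. The difference in motifs was not tested, and E2F sites in other spellings are not in these counts.

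To see the response rat by rat, the 140 cell cycle genes were averaged on the log2 CPM scale into a cell cycle score. The score was 0.864, 0.953, 1.16, 1.63 and 1.91 in the vehicle rats, 1.30 ± 0.45 (SD, n = 5), and 2.00, 1.81, 2.33, 2.56 and 2.57 at 1500 mkd, 2.25 ± 0.34. Treated rat 2 was below vehicle rat 5 and the other 4 treated rats were above all vehicle rats. In the groups given 300, 500, 750 and 1000 mkd, the means were 1.41 ± 0.32, 1.68 ± 0.44, 1.93 ± 0.17 and 1.99 ± 0.44. In treated rats 1 to 5, 54, 37, 86, 117 and 93 of the 140 genes lay above all 5 vehicle rats.

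**Figure D3:**
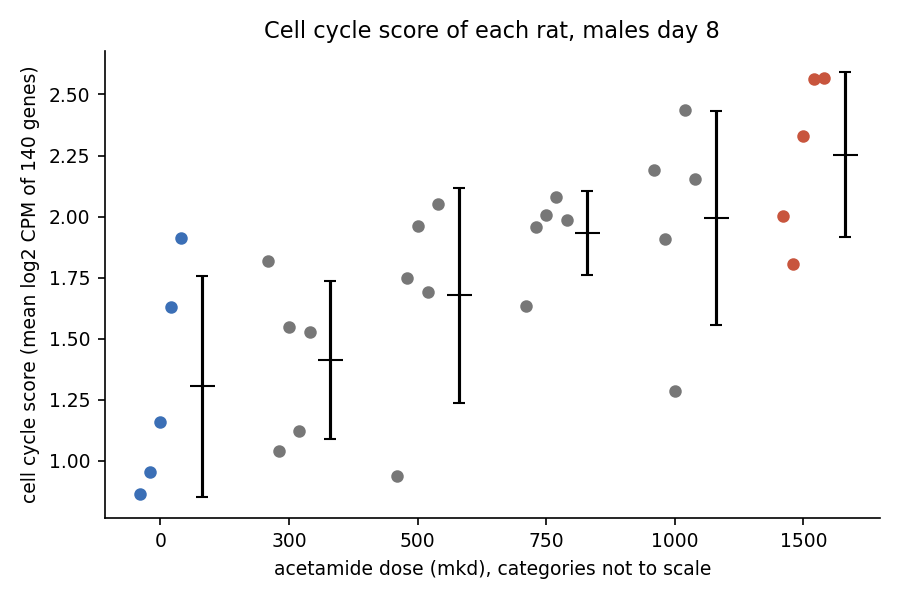
Cell cycle score (mean log2 CPM of 140 genes) of each male on day 8 by dose in mkd, with the mean and SD of each group of 5 rats beside its points. The vehicle rats spread from 0.864 to 1.91 and the rats at 1500 mkd from 1.81 to 2.57, with an overlap of a single rat.

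Vehicle rats 4 and 5, which had the highest scores of their group, were also the rats with the highest share of reads not on genes (56.7 and 53.7%, against 41.4 to 46.0% in the other vehicle rats), and the part of this share in the score was not tested. Leaving out the vehicle rats with the highest scores was bound to raise the difference in score, so that the values without them do not bear on this share. Without both of them the difference in score between 1500 mkd and vehicle was 1.26 in place of 0.95. In that fit 101 cell cycle genes were higher at an unadjusted p under 0.05, and 85 genes in all were called, 12 of the 20 among them.

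Outside the cell cycle, Abcb1b, a multidrug efflux transporter of the P-glycoprotein type, was at 1.60, 1.51, 1.54, 8.50 and 3.88 CPM in the vehicle and at 23.9, 24.7, 20.1, 20.8 and 33.5 CPM at 1500 mkd. The treated rats lay close together, all above the highest vehicle rat, and the log2 fold change was 2.88 (SE 0.62, adjusted p = 0.0442). Its close copy Abcb1a was at 19.7 ± 5.52 CPM in the vehicle and 17.9 ± 3.42 CPM at 1500 mkd (adjusted p = 0.86), and of the 15 ABC efflux transporters tested, 6 were higher, with a median log2 fold change of -0.07. The 2 copies are similar in sequence, and how reads common to both were assigned is not given in the sources used here.

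Tmem120a, a protein of the nuclear envelope and endoplasmic reticulum that binds CoA, had the smallest adjusted p after Acot1. It was at 25.6, 22.0, 28.3, 27.1 and 28.0 CPM in the vehicle and at 45.6, 53.5, 36.7, 47.0 and 40.3 CPM at 1500 mkd (log2 fold change 0.77, SE 0.12, adjusted p = 0.00653). The spread within each group was small beside the difference, and the log2 fold change stayed between 0.69 and 0.83 without any 1 of the 10 rats.

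Krt18, a keratin of simple epithelia such as hepatocytes and bile ducts, was at 135, 127, 91.5, 129 and 122 CPM in the vehicle and at 206, 205, 258, 226 and 167 CPM at 1500 mkd (log2 fold change 0.81, SE 0.17, adjusted p = 0.038). Krt8, its partner in the filament, met the relaxed criteria, with 219 ± 91.3 CPM in the vehicle and 428 ± 138 CPM at 1500 mkd (log2 fold change 0.97, adjusted p = 0.0913). Lmna, the gene of the nuclear lamins A and C, was at 42.7 to 72.5 CPM in the vehicle and at 84.3 to 102 CPM at 1500 mkd (log2 fold change 0.62, adjusted p = 0.0388). All 3 encode intermediate filament proteins. Cholangiocytes express Krt8 and Krt18 too, and their 7 markers summed to 41.0 to 53.1 CPM in the vehicle and 41.9 to 48.4 CPM at 1500 mkd.

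Dctpp1, which removes modified cytidine nucleotides, was at 1.17 to 1.75 CPM in the vehicle and at 2.34 to 3.27 CPM at 1500 mkd (log2 fold change 0.87, adjusted p = 0.0333). Map1lc3a, which encodes the autophagosome protein LC3A, was at 12.6 to 17.8 CPM in the vehicle and at 19.4 to 25.0 CPM at 1500 mkd (log2 fold change 0.62, adjusted p = 0.0333). For both genes the groups did not overlap. Tmem98 had an adjusted p of 0.0333 as well, with a log2 fold change of 0.55, which is under the fold criterion.

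Of the 4 down-regulated genes, Fam210b, a mitochondrial membrane protein, was at 52.7, 38.5, 56.3, 97.4 and 80.6 CPM in the vehicle and at 33.1, 28.9, 30.6, 24.2 and 36.1 CPM at 1500 mkd (log2 fold change -1.09, SE 0.21, adjusted p = 0.0333). The vehicle rats spread widely and the treated rats lay close together below them. Atp13a5, a P-type ATPase, was at 7.41, 4.71, 4.27, 6.58 and 7.72 CPM in the vehicle and at 2.80, 2.03, 2.84, 3.10 and 2.99 CPM at 1500 mkd (log2 fold change -1.15, SE 0.24, adjusted p = 0.0353). Slc20a2, a sodium-dependent phosphate transporter, was at 74.7, 86.1, 74.1, 101 and 63.4 CPM in the vehicle and at 54.0, 44.3, 53.2, 37.8 and 59.1 CPM at 1500 mkd (log2 fold change -0.69, SE 0.15, adjusted p = 0.0438). In Slc20a2 the highest treated rat was only slightly below the lowest vehicle rat.

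Eda, which encodes the TNF family ligand ectodysplasin A, was at 1.53, 1.14, 1.87, 1.4 and 1.38 CPM in the vehicle and at 0.658, 0.875, 0.848, 0.653 and 0.654 CPM at 1500 mkd (log2 fold change -0.98, SE 0.21, adjusted p = 0.0455). Its receptor Edar was at 5.14, 5.91, 3.04, 7.43 and 4.09 CPM in the vehicle and at 1.77, 2.03, 2.69, 1.04 and 2.68 CPM at 1500 mkd (log2 fold change -1.32, SE 0.39, adjusted p = 0.11). The groups did not overlap for either the ligand or the receptor, although only the ligand passed the test. Of all genes tested, 1.1% had all treated rats below all vehicle rats. Of the 22 mitogen receptors and ligands tested, 14 were lower, 3 at an unadjusted p under 0.05, against 6.32% of all genes tested. The third of these was Met, the receptor of hepatocyte growth factor (log2 fold change -0.63, adjusted p = 0.22).

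Of the genes that met the relaxed criteria with no overlap between the groups, the 10 largest changes each way are named. Downward, Cyp2c11, the main male-specific P450 of rat liver, was at 1127, 1619, 1950, 1014 and 1543 CPM in the vehicle and at 632, 444, 604, 249 and 902 CPM at 1500 mkd (log2 fold change -1.36, SE 0.34, adjusted p = 0.0714). Of the 24 sex-dimorphic genes tested, 17 were lower, 3 at an unadjusted p under 0.05, against 6.32% of all genes tested, with a median of -0.26. The sulfotransferase Sult1c3 had a log2 fold change of -0.69 (adjusted p = 0.13). The glutathione transferase Gsta2 (log2 fold change -1.08, adjusted p = 0.0541), the fructose pathway enzyme Tkfc (-1.01, adjusted p = 0.0831), the caveolin Cav2 (-1.01, adjusted p = 0.0802) and the heparan sulfate enzyme Ndst1 (-0.90, adjusted p = 0.0806) were lower as well. Slc46a1, the proton-coupled folate transporter (-0.69, adjusted p = 0.0831), the phosphatase subunit Ppp2r3a (-0.65, adjusted p = 0.0937) and Dtx3l, of the interferon list (-0.63, adjusted p = 0.0937), were also lower. Upward, genes outside the cell cycle lists among the 10, besides Haus4 named above, were Tubb6, a β-tubulin (log2 fold change 1.75, adjusted p = 0.0681), Cgref1 (1.78, adjusted p = 0.0806) and Ddias (1.81, adjusted p = 0.0617). Cgref1 was at 5.76, 9.45 and 10.1 CPM in treated rats 1, 2 and 4 and at 2.62 and 2.21 CPM in rats 3 and 5, which were also the lowest for Acot1.

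In the lists of lipid synthesis most genes had negative log2 fold changes and 0 were called in the edgeR fit of all 6 groups. Of the 25 genes of cholesterol synthesis, all 25 were lower and 14 had an unadjusted p under 0.05, against 6.32% of all genes. In that fit 0 of them met the relaxed criteria, and the median log2 fold change was -0.45. The Wald test of DESeq2 called 3 genes of fatty acid and triglyceride synthesis down, where it called 47 genes down in all. By the same test 0 genes of cholesterol synthesis were called, and 4 met the relaxed criteria, all lower. With the groups of the contrast alone in edgeR, 1 gene of fatty acid and triglyceride synthesis was called down. Hsd17b7, an enzyme of the late pathway, had a log2 fold change of -0.85 (adjusted p = 0.13) with all treated rats below all vehicle rats, and Idi1 had -1.15 (adjusted p = 0.15). Without 1 of the 10 rats, 19 to 25 genes of the list were lower, and 5 to 16 had an unadjusted p under 0.05.

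Of the 22 genes of fatty acid and triglyceride synthesis, 20 were lower, 8 at an unadjusted p under 0.05, against 6.32% of all genes tested. The median was -0.33. Srebf1, the transcription factor of lipogenesis, met the relaxed criteria at 82.8, 74.6, 130, 273 and 119 CPM in the vehicle and 39.6, 44.2, 93.2, 35.2 and 47.7 CPM at 1500 mkd (log2 fold change -1.39, SE 0.36, adjusted p = 0.0757). Treated rat 3 lay within the vehicle range. Acly, which makes the acetyl-CoA for lipid synthesis, was at 85.3, 126, 162, 120 and 90.6 CPM in the vehicle and at 52.1, 51.9, 69.4, 66.2 and 78.5 CPM at 1500 mkd (log2 fold change -0.88, SE 0.24, adjusted p = 0.0845), without overlap. Acaca (-0.96, adjusted p = 0.11), Fasn (-0.96, adjusted p = 0.28) and Thrsp (-1.82, adjusted p = 0.19) did not meet the criteria. Pklr, the liver pyruvate kinase of the glucose list, had a log2 fold change of -0.88 (adjusted p = 0.14), and 10 of 19 genes of that list were lower.

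Of the 18 genes of homologous recombination and Fanconi repair, 17 were higher, 11 at an unadjusted p under 0.05, and 6 met the relaxed criteria, with a median of 0.78. Over all genes tested, 6.33% were higher at an unadjusted p under 0.05, and 0.973% met the relaxed criteria upward. Chek2, the DNA damage kinase, was at 2.27, 2.37, 2.34, 2.05 and 2.42 CPM in the vehicle and at 4.03, 2.66, 3.36, 3.36 and 4.39 CPM at 1500 mkd (log2 fold change 0.63, SE 0.15, adjusted p = 0.0617), and Rad54l had a log2 fold change of 1.14 (adjusted p = 0.0714). The vehicle rats were very close to each other for Chek2. Of the 23 p53 targets, 17 were higher, 5 at an unadjusted p under 0.05, and Phlda3 alone met the relaxed criteria (log2 fold change 0.64, adjusted p = 0.0721). Bax had a log2 fold change of 0.51 (adjusted p = 0.153), Mdm2 0.43 (adjusted p = 0.39) and Cdkn1a, the gene of p21, 0.51 (adjusted p = 0.86).

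In the interferon response 32 of 46 genes were higher, 9 at an unadjusted p under 0.05, and 14 were lower, 3 at an unadjusted p under 0.05. The relaxed criteria were met by 2 genes upward and by 1, Dtx3l, downward. Over all genes tested, the shares up and down were 6.33 and 6.32% at that p and 0.973 and 0.407% by the relaxed criteria. Rsad2, an antiviral enzyme, was at 5.14, 4.05, 2.34, 3.78 and 6.59 CPM in the vehicle and 13.5, 4.79, 28.6, 11.8 and 11.1 CPM at 1500 mkd (log2 fold change 1.67, adjusted p = 0.0758). The largest negative fold change of all genes with a mean of at least 1 CPM was that of Ifit1, at 23.2 CPM in vehicle rat 2 and at 0.0668 to 0.261 CPM in the other 4 vehicle rats, against 0.0934 to 0.175 CPM at 1500 mkd (log2 fold change -5.16, adjusted p = 0.238). A single vehicle rat carried this value. Cib2 (log2 fold change -2.15, adjusted p = 0.264) and LOC500035 (-2.11, adjusted p = 0.30) followed it in size, and neither group was separate from the other. Hspb1, a small heat shock protein, met the relaxed criteria (log2 fold change 1.21, adjusted p = 0.0757), with 10 of 21 chaperones higher.

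Of the 18 P450 genes and other targets of the receptors CAR, PXR and AhR, 8 were higher. In edgeR 0 of them had an unadjusted p under 0.05, against 12.6% of all genes tested. Cyp1a1 was at 0.489 ± 0.401 CPM in the vehicle and 0.861 ± 0.675 CPM at 1500 mkd, and Cyp2b1 at 8.60 ± 2.88 and 12.5 ± 12.0 CPM. A change of these 2 genes was not detectable at this spread. Of the NRF2 targets 15 of 25 were higher, of bile acid genes 3 of 21, of urea cycle and amino acid genes 16 of 43, of serine synthesis and ATF4 genes 8 of 23, of acute-phase proteins 4 of 21, of the growth hormone axis 3 of 15 and of clock genes 1 of 16. In the order of these 7 lists, 5, 1, 1, 2, 0, 1 and 0 genes were higher at an unadjusted p under 0.05. Lower at that p were 3, 5, 5, 0, 3, 2 and 0, against 6.33% of all genes up and 6.32% down. In the 7 lists 0 genes were called and 1, Gsta2, met the relaxed criteria, against 0.177 and 1.38% of all genes. Medium-chain acyl-CoA synthetases were split, with 2 of 4 higher, 11 of 14 pericentral and 5 of 13 periportal genes were higher, and 11 of 15 preneoplasia and progenitor markers were higher with 0 of them called.

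Among the genes that the study's text discusses, Acot1 was called, and Chek2, Mki67, Parpbp (log2 fold change 1.51, adjusted p = 0.0831) and Cenpw (2.04, adjusted p = 0.0896) met the relaxed criteria. Hebp2 (0.73, adjusted p = 0.737), Cyp17a1 (0.25, adjusted p = 0.813), Slc7a1 (-0.20, adjusted p = 0.888), Prom1 (0.39, adjusted p = 0.496), Akr1b8 (-0.05, adjusted p = 0.983) and Nqo1 (-0.23, adjusted p = 0.824) did not, and neither did Rnd1 (0.53, adjusted p = 0.356), Tes (0.45, adjusted p = 0.422), S100a10 (0.61, adjusted p = 0.423) and Car3 (-1.26, adjusted p = 0.158). The sets named here were chosen by the study with these samples among others.

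In whole liver, fewer cells of a type and less RNA per cell cannot be told apart. The summed markers of other cell types overlapped between the groups. Stellate cell and fibroblast markers summed to 388 to 629 CPM in the vehicle and 478 to 821 CPM at 1500 mkd, with 8 of 10 genes higher and 3 treated rats above all vehicle rats, and Col3a1 had a log2 fold change of 0.51 (adjusted p = 0.291). Macrophage markers summed to 789 to 1510 CPM and 787 to 1690 CPM, with 10 of 12 higher. Erythroid markers summed to 33.0 to 143 CPM and 119 to 169 CPM, with 7 of 7 higher. T and NK cell markers summed to 31.0 to 58.6 CPM and 32.4 to 65.1 CPM, B cell markers to 1.27 to 2.52 and 0.664 to 2.48 CPM, neutrophil markers to 1.60 to 5.34 and 1.36 to 2.42 CPM, and endothelial markers to 108 to 178 and 87.5 to 203 CPM. Whether these cells had a part in the changes of the cell cycle genes was not tested.

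The lower doses of the same males share the vehicle rats with this comparison, and their values are given side by side. At 300, 500, 750 and 1000 mkd, 0 genes were called in edgeR, and 159 (1.41%), 375 (3.32%), 865 (7.65%) and 531 (4.7%) genes had an unadjusted p under 0.05, against 1429 (12.6%) at 1500 mkd. The mean of Acot1 was 1.14, 2.23, 4.54, 8.78, 5.88 and 35.0 CPM from the vehicle to 1500 mkd. Abcb1b went from 3.41 to 4.49, 8.05, 11.7, 14.7 and 24.6 CPM, and Tpx2 from 4.09 to 4.88, 6.36, 8.04, 8.42 and 11.8 CPM. Both were higher at each higher dose, while Acot1 was lower at 1000 than at 750 mkd. Tmem120a had means of 26.2, 28.7, 32.9, 36.3, 31.6 and 44.6 CPM, Krt18 of 121, 118, 166, 192, 160 and 212 CPM, and Mybl2 of 0.580, 0.506, 0.771, 1.66, 1.27 and 3.53 CPM. In these 3 genes too the group at 1000 mkd lay below that at 750 mkd. Fam210b had means of 65.1, 56.9, 47.8, 53.4, 55.8 and 30.6 CPM.

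**Figure D4:**
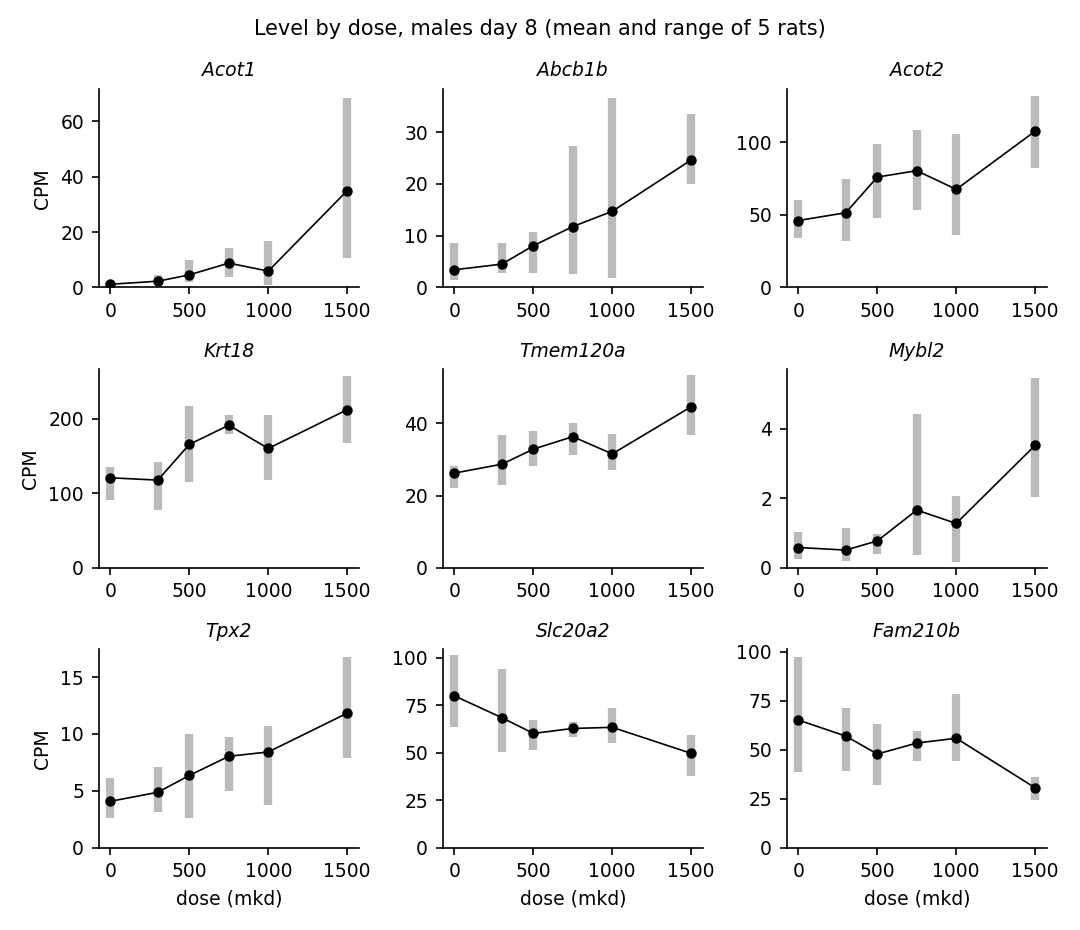
Mean CPM (points, joined by lines) and range over 5 rats (gray bars) of 9 called genes by dose in mkd in males on day 8. In each of the 9 genes the mean changes most between 1000 and 1500 mkd, which is also the widest step in dose. The means of Abcb1b and Tpx2 rise at every lower step as well.

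A direct test of 1500 against 1000 mkd called 0 genes in edgeR, with 679 (6.01%) at an unadjusted p under 0.05, and 13 genes in DESeq2. Acot1 was higher at 1500 than at 1000 mkd by 2.56 on the log2 scale (SE 0.61, adjusted p = 0.231), Tmem120a by 0.50 (SE 0.12, adjusted p = 0.265) and Tk1 by 0.05 (SE 0.20, adjusted p = 0.993). Fam210b differed by -0.87 (SE 0.21, adjusted p = 0.244) and Eda by -0.81 (SE 0.22, adjusted p = 0.306). In edgeR the step from 1000 to 1500 mkd was not past the threshold for any of the 20 genes.

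The other data sets of the series come from other rats with vehicle controls of their own. Of the 20 called genes, 19 had the same direction in females on day 8 and 5 were called there, Acot1, Abcb1b, Mybl2, Ercc6l and Slc20a2, where 0.705% of all genes were called. In males on day 29, after 28 days at 1500 mkd, all 20 had the same direction and 13 were called (4.91% of all genes), and in females on day 29 19 and 9 (13.1%). In the earlier experiment A, with males of 9 to 10 weeks at 1000 mkd on day 8, the numbers were 20 and 13 (21.4%). The labels place the day 29 vehicle males in the first exposure experiment, and the study's design places them in the second.

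**Figure D5:**
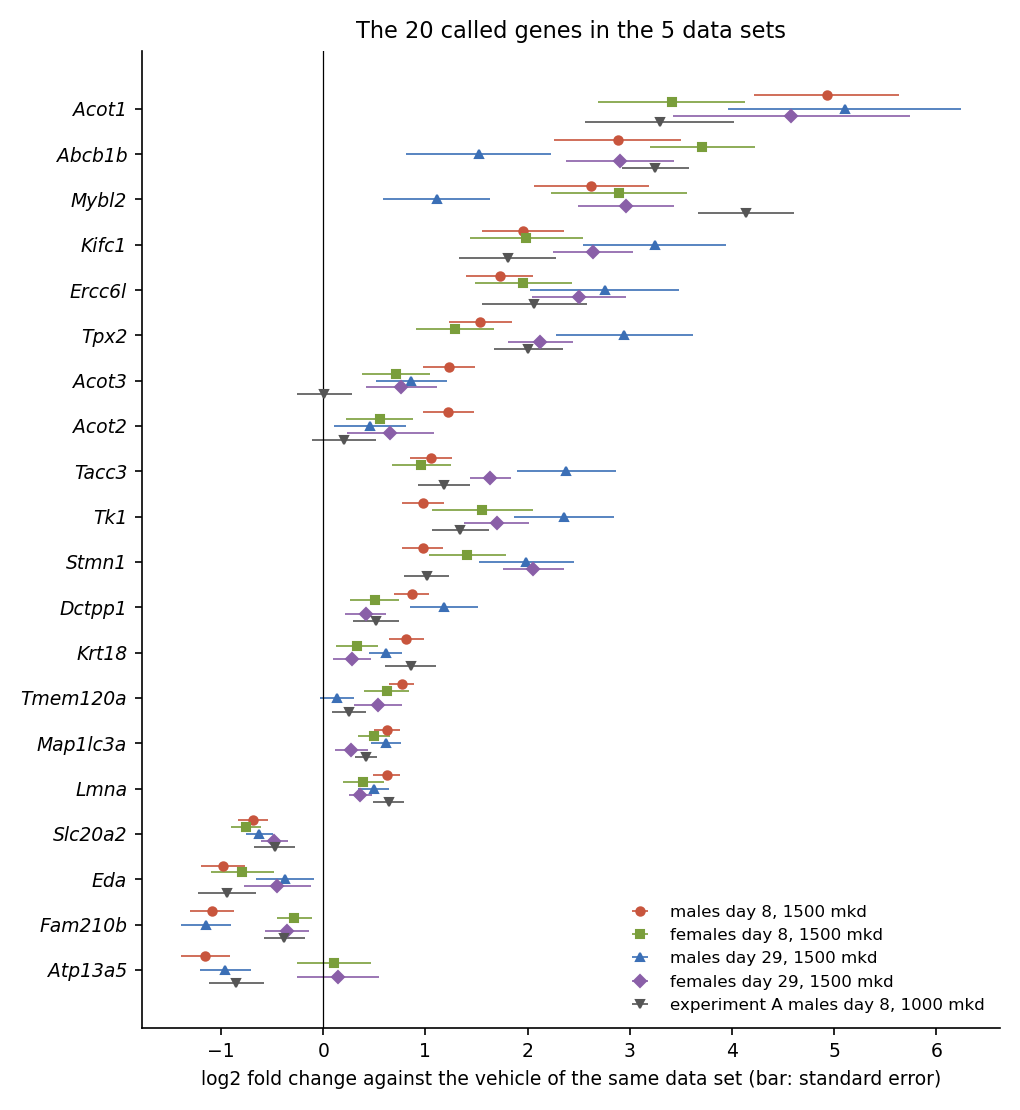
Log2 fold change with its standard error of the 20 called genes in males on day 8 and in the 4 other comparisons, each against its own vehicle rats (n = 5 per group). Acot1 and Abcb1b lie far to the right in all 5, and Atp13a5 lies below 0 in the 3 comparisons of males and near 0 in both of females.

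Acot1 had log2 fold changes of 3.41 (adjusted p = 0.0354) in females on day 8, 5.10 (adjusted p = 0.0114) in males on day 29, 4.58 (adjusted p = 0.00692) in females on day 29 and 3.29 (adjusted p = 0.00205) in experiment A. Acot2 had 0.55, 0.45, 0.66 and 0.20, and Acot3 0.71, 0.86, 0.76 and 0.01, with adjusted p between 0.115 and 0.978, and neither was called there. The interaction with sex was -0.68 for Acot2 and -0.53 for Acot3 (adjusted p = 0.995 for both), and that with time -0.80 and -0.40 (adjusted p = 0.988 for both), so that a difference from males on day 8 was not shown. Tmem120a had 0.62, 0.14, 0.54 and 0.25 and was called in none of the other comparisons. Atp13a5 had 0.10 (adjusted p = 0.93) in females on day 8 and -0.96 (adjusted p = 0.0227) in males on day 29.

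The response to 1500 mkd was compared between the sexes on day 8 by an interaction in edgeR. Of 11631 genes, 0 were called and 533 (4.58%) had an unadjusted p under 0.05, and DESeq2 called 0 genes. Atp13a5 had an interaction of 1.25, females minus males (SE 0.43, adjusted p = 0.957), and Fam210b 0.80 (SE 0.28, adjusted p = 0.957). Between day 29 and day 8 in males, 0 of 11464 genes were called, 538 (4.69%) had an unadjusted p under 0.05, and DESeq2 called 1 gene, Ifit1, whose level in the day 8 vehicle rests on a single rat. Tmem120a had an interaction of -0.67, day 29 minus day 8 (SE 0.21, adjusted p = 0.988), Tacc3 1.30 (SE 0.52, adjusted p = 0.988) and Tk1 1.36 (SE 0.53, adjusted p = 0.988). A difference between the sexes or the time-points was therefore not detectable for single genes with 5 rats per group.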

How the data were processed

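Total RNA of the left liver lobe was made into libraries with a stranded mRNA kit. The authors trimmed the reads with Trimmomatic, aligned them to the rat genome (Rn6) with Bowtie2, which does not split reads at introns, and counted reads on gene models with HTSeq. They deposited raw counts for 17337 genes without normalization, and the strand setting of the counting is not given in the sources used here, so that overlapping genes and close copies are uncertain. The summary lines of HTSeq, 39.5 to 56.7% of a rat's counts, entered neither the library sizes nor the tests. The per-sample columns not used number 0, and 14821 genes have a symbol in the reference table.

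Counts of the 30 males of day 8 were tested in a single fit of all 6 groups with edgeR 4.0.16 in R 4.3.3 (TMM normalization, its filter on low counts, quasi-likelihood F-test, Benjamini-Hochberg adjustment). Levels are TMM-scaled CPM. The score used a prior count of 2 and was not tested. Interactions with females of day 8 and males of day 29 were fitted over both tables. DESeq2 1.42.0, its size factors, other filters, the replicate number as a block, the groups of the contrast alone and leaving out rats were tried. Leaving out vehicle rats 4 and 5 together, leaving out rats for the score and recomputing lists were added after seeing the data. The scripts were tested on simulated data. The rats, gene lists and tests were chosen with earlier results of these data known.

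Named are all called genes, up to 10 relaxed genes each way without overlap and with a mean of at least 1 CPM, the 3 largest changes each way, the 2 genes with the smallest p of each list, and genes the study names. The other genes of the lists were named after their values were seen. No batch is given in the labels. Each replicate is a separate rat. Motifs were searched in RefSeq promoters of 300 bases, found for 17 of the 20 called genes. Some single genes of the lists are not reported here.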

Additional observations from a re-analysis of the deposited data

Results flagged for a closer look

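Of 238 groups of 5 rats examined, the levels of each named gene in the vehicle and at 1500 mkd and the scores of each dose, 23 held a rat that stood far from the other 4, measured as the gap to its neighbour over the range of the group. Chance gives such a rat in about 1 of 20 groups, and genes of the same rats are not independent. The causes were not tested.

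Among the called genes, Tacc3 was at 9.51 CPM in vehicle rat 5 (6.97 to 7.55 in the others), Krt18 at 91.5 CPM in vehicle rat 3 (122 to 135) and Atp13a5 at 2.03 CPM in treated rat 2 (2.80 to 3.10). Among the relaxed genes, Tubb6 was at 6.42 CPM in vehicle rat 5 (2.54 to 2.71), Ndst1 at 86.6 CPM in vehicle rat 4 (47.1 to 53.1), Haus4 at 7.21 CPM in treated rat 4 (5.46 to 5.84) and Cav2 at 9.38 CPM in treated rat 2 (13.8 to 15.0).

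In the vehicle, Ifit1 stood at 23.2 CPM in rat 2, Nqo1 at 16.4 CPM in rat 1 (3.21 to 4.17 in the others), Bhlhe40 at 17.9 CPM in rat 1 (55.8 to 60.6), Car3 at 373 CPM in rat 1 (1136 to 1680), Acox2 at 435 CPM in rat 2 (600 to 665), Nr1d2 at 61.8 CPM in rat 3 (98.9 to 109), Klf1 at 0.0934 CPM in rat 4 and Muc1 at 0.374 CPM in rat 4. At 1500 mkd, Cyp3a9 stood at 46.6 CPM in rat 1 (8.81 to 12.3), Cdh5 at 8.10 CPM in rat 1 (15.4 to 18.5), Cyp2e1 at 1452 CPM in rat 3 (3167 to 4181), Ms4a1 at 0.0369 CPM in rat 3, Prom1 at 0.774 CPM in rat 3, Slc7a1 at 2.51 CPM in rat 3 (0.946 to 1.19) and Car3 at 220 CPM in rat 4 (525 to 582). The cell cycle score of rat 1 at 750 mkd was 1.63, with the other 4 rats between 1.96 and 2.08.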

How the results depend on the processing

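All 20 called genes kept their direction under every alternative that gave a value, and the difference in cell cycle score lay between 0.84 and 1.30. As the 20 genes were called on these same rats, a turn of their sign was unlikely beforehand. The number of calls was less steady. Against 20 called and 156 relaxed genes, the Wald test of DESeq2 gave 178 and 308, the groups of the contrast alone 11 and 27, and leaving out vehicle rats 4 and 5 gave 85 called. Leaving out 1 rat or a replicate number of every group gave 0 to 86 called genes and 0 to 306 relaxed genes. Between 1500 and 1000 mkd, DESeq2 called 13 genes and the fit of the contrast alone 1. For the difference between time-points, DESeq2 called 1 gene, and leaving out rats gave 0 to 1 genes for both interactions. With the replicate block, 33 genes were called, 18 of the 20 among them. The deviations of same-numbered rats from their group means correlated at 0.23, 0.31, 0.28, -0.07 and 0.18, with 4 of 5 highest for their own number, a hint of pairing from the data and not from the design. As 1 of the 5 was below 0.1, the counts reported are those without the block, and 16 cell cycle genes were called with it against 7 without. For 4 genes named by the study, none of which passed the test, the log2 fold change turned its sign. Akr1b8 turned to 0.10 under the replicate block. Without 1 rat or replicate number, Akr1b8 lay between -0.70 and 0.40, Nqo1 between -0.41 and 0.51, Slc7a1 between -0.59 and 0.28 and Hebp2 between -0.13 and 1.58. Without vehicle rats 4 and 5, Slc7a1 was at 0.53. The causes were not tested. The depth of 20196236 reads or more limits genes under about 1 CPM most.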
